A study of Rattus norvegicus with 84 samples.

Results

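The 7 genes described here encode subunits of the GABA-A receptor: Gabra2, Gabra3, Gabra4 and Gabra5 (alpha subunits), Gabrb1 and Gabrb2 (beta subunits) and Gabrd (the delta subunit). They were chosen by name as rows of a gene count table with 41919 genes. The rule for membership uses no measured value, though the list was drawn up with earlier results of these data known. Total RNA came from the Core and the Shell of the nucleus accumbens of wild-type Long-Evans rats, in a study of cocaine withdrawal and extinction. The labels give 2 subregions (Shell and Core), 3 states (Ext, Ctx and HC) and 2 drugs (Coc and Sal), which make 12 groups of 7 libraries, 84 in all. Coc is read here as cocaine and Ext as extinction, as the study's title names both, and Sal commonly stands for saline. Ctx and HC are kept as labelled, since the labels do not spell them out. All groups share strain and genotype. Sex, age, dose and the length of abstinence are not given in the labels, nor whether each library came from a separate animal. The p-values therefore measure the spread between these samples.

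GABA-A receptors are chloride channels built from several subunits that are opened by the inhibitory transmitter GABA. Alpha and beta subunits together form the GABA binding site, and the alpha type sets much of the drug sensitivity of the channel. In striatal projection neurons, the main cells of the nucleus accumbens, α2 is a common alpha type at synapses, while α4 joins with δ in receptors outside synapses that carry a lasting inhibitory current. Receptors with α5 are also found outside synapses, best known from the hippocampus, and α3 is typical of certain interneurons and of the reticular thalamus. Of the beta types, β2 is common across the brain and β1 less so.

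The 250 bases before the annotated start are shown for Gabra3, Gabra4 and Gabrd, in RefSeq sequence of the rat build GRCr8. These 3 genes were called in the average Shell minus Core comparison with the counts as deposited, though not under every setting below. Capitals mark every match to the motifs searched on both strands.
Gabra3 (chrX:155543871-155544120, minus strand, GRCr8): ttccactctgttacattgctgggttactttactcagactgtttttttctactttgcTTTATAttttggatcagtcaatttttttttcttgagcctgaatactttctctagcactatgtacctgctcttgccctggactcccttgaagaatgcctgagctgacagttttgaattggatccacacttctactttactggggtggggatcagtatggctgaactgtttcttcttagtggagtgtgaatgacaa
Gabra4 (chr14:36944497-36944746, plus strand, GRCr8): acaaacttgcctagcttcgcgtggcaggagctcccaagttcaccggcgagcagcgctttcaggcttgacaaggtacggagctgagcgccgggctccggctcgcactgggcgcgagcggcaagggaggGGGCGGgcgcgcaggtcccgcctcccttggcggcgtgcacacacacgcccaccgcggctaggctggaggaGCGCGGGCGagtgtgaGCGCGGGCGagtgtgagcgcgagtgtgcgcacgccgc
Gabrd (chr5:171252710-171252959, minus strand, GRCr8): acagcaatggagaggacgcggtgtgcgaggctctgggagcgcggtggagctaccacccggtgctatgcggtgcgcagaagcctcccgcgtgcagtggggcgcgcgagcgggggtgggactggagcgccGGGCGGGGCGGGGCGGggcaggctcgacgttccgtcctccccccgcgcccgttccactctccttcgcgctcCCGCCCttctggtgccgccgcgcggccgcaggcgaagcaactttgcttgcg
In the Gabra4 stretch the capitals mark the EGR motif GCGNGGGCG at 2 places and the GC box GGGCGG at 1 place, and in the Gabrd stretch they mark 4 GC boxes. In the Gabra3 stretch they mark TATAAA, read on the opposite strand. Of 27457 rat promoter stretches of this length, 4.53% hold the EGR motif, 32.4% the GC box and 13.1% TATAAA. The cAMP response motif TGACGTCA (1.70% of stretches) and its shorter form TGACG (19.0%), which is part of it, were searched as well and are not in these letters for the 6 members that matched by symbol. Gabra2 had no entry. The Gabra4, Gabrd and Gabra5 stretches are rich in G and C (71.6%, 74.0% and 76.4% of bases), with 33, 35 and 37 CG pairs. The Gabrb1, Gabrb2 and Gabra3 stretches hold 49.2%, 43.2% and 40.4% G and C, with 8, 8 and 0 CG pairs, against medians of 52.0% and 6 over all stretches. A match is a match of letters only and shows no binding.

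Libraries held 13628550 to 22494761 counts. Levels are given in CPM, which scales each count by the size of its library (after TMM scaling), and fold changes on the log2 scale with their standard error. The gene lengths behind the authors' FPKM are those of whole gene bodies, introns included. The rate of counts that fall on genes outside their own transcription was estimated from 2033 odorant and vomeronasal receptor genes, which brain neurons largely keep off. Spread over all gene bodies, it gave a background of 2.13 to 52.4% of the counts in Shell libraries (median 21.9%) and of 1.58 to 96.1% in Core libraries (median 22.2%). The highest value belonged to Core Ctx_Coc library 17-F, which stands apart from all others, and the main results that its group enters are given with and without it. The next highest was Shell Ext_Sal library 12-F. Projection neuron markers such as Ppp1r1b and Bcl11b were present in both subregions, with a summed level of 1657 to 6569 CPM in Shell and 723 to 7052 CPM in Core for 8 genes.

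All 7 members were measured in every library, and levels between genes were compared per kilobase of gene body. By that measure Gabra4 and Gabrd, whose subunits join in receptors outside synapses, stood highest of the 7. The order depends on the division by length. In CPM Gabrb1 was highest (396 ± 118) and Gabrd lowest (21.4 ± 7.28, SD over 84 libraries). Gabra4 had 1.65 ± 0.413 CPM per kb in Shell and 2.15 ± 0.988 in Core, and Gabrd had 1.55 ± 0.327 in Shell and 2.05 ± 0.722 in Core (SD over 42 libraries per subregion). Gabra2, the synaptic alpha type, had 0.987 ± 0.212 CPM per kb in Shell and 1.07 ± 0.441 in Core. The beta genes followed, Gabrb1 with 0.806 ± 0.155 in Shell and 0.842 ± 0.313 in Core, and Gabrb2 with 0.712 ± 0.150 in Shell and 0.619 ± 0.201 in Core. Gabra5 had 0.290 ± 0.0274 CPM per kb in Shell and 0.284 ± 0.0272 in Core. Gabra3 was lowest, with 0.220 ± 0.0277 in Shell and 0.170 ± 0.0238 in Core. The order of the 7 means was the same in both subregions, but Gabra4 and Gabrd lay within 1 SD of each other in each, as did Gabrb1 and Gabrb2 in Shell and Gabra2 and Gabrb1 in Core (by the smaller SD of each pair).

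The silent receptor genes averaged 0.172 ± 0.0443 CPM per kb in Shell and 0.136 ± 0.0797 in Core (SD over 42 libraries per subregion). At that rate the median share of background in a library's Gabra3 counts was 83.7% in Shell and 102% in Core, so Gabra3 was little above it or level with it in a typical library. Single libraries ran from 8.25 to 131% in Shell and from 10.3 to 218% in Core, so where background was low most Gabra3 counts lay above it. For Gabra5 the share was 59.9% in Shell and 61.4% in Core. It was lowest for Gabra4 (10.7% in Shell, 10.1% in Core) and Gabrd (11.0% in Shell, 9.86% in Core). Gabra2, Gabrb1 and Gabrb2 lay between 18.1 and 29.8%. Of the subunit genes that are no members, Gabra6, Gabre, Gabrq, Gabrp and Gabrr3 were near the rate of the silent genes in both subregions.

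**Figure D1:**
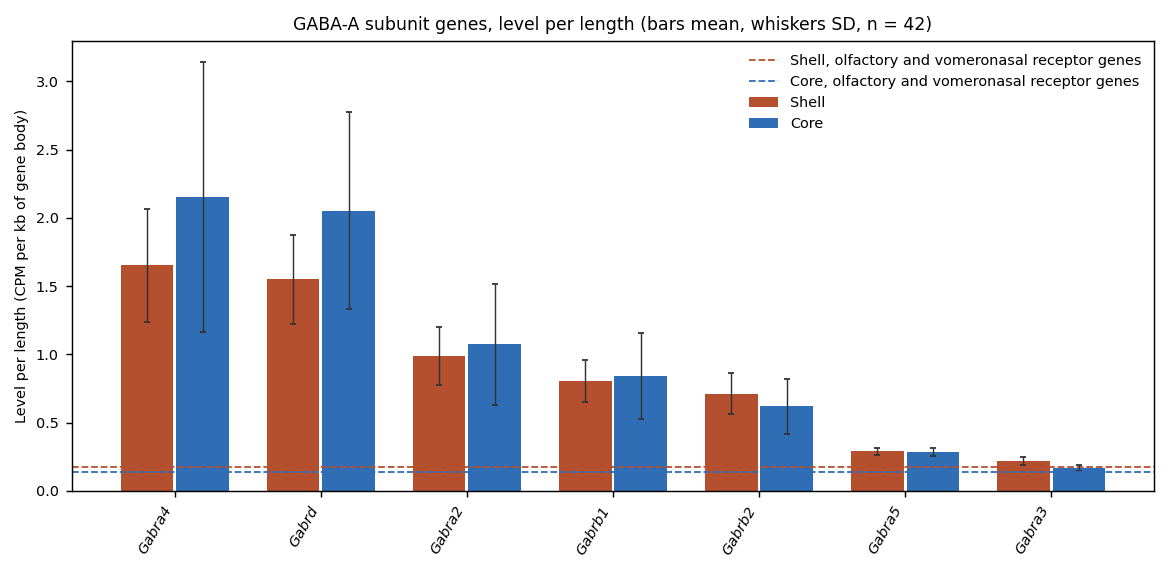
Level per length (CPM per kb of gene body) of the 7 members in Shell and Core, as bars for the mean of 42 libraries with whiskers of 1 SD; dashed lines mark the mean of the silent receptor genes. Gabra4 and Gabrd are the tallest, and Gabra3, at 0.220 and 0.170, stands close to the dashed lines.

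Gabra3 separated the subregions most clearly. The lowest, median and highest libraries had 47.5, 53.0 and 71.4 CPM in Shell Ext_Coc, 48.5, 54.9 and 63.0 CPM in Shell Ext_Sal, and 46.6, 51.5 and 53.2 CPM in Shell Ctx_Coc. They had 52.3, 57.1 and 77.1 CPM in Shell Ctx_Sal, 53.4, 58.7 and 78.8 CPM in Shell HC_Coc, and 50.2, 56.0 and 59.4 CPM in Shell HC_Sal. The HC_Coc and Ctx_Sal groups reached highest, and the lowest libraries of the 6 groups lay close together. In Core the same 3 values were 39.9, 46.3 and 52.7 CPM in Core Ext_Coc, 35.1, 41.8 and 47.2 CPM in Core Ext_Sal, and 36, 42.5 and 48.3 CPM in Core Ctx_Coc. They were 35.2, 42.4 and 59.3 CPM in Core Ctx_Sal, 37.1, 42.9 and 58.7 CPM in Core HC_Coc, and 37.2, 39.8 and 45.5 CPM in Core HC_Sal. The 6 Shell group means, from 51.0 to 60.5 CPM, all lay above the 6 Core means, from 40.7 to 46.1 CPM. Of the 11 steps between neighbouring group means, 2 were larger than the smaller SD of the pair: Shell Ext_Sal (55.3 ± 4.75) over Shell Ctx_Coc (51.0 ± 2.31), and Shell Ctx_Coc over Core Ext_Coc (46.1 ± 5.11). Single libraries still overlapped: all 42 Shell libraries lay above the Core mean, and 9 lay above every Core library.

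Gabra4, the alpha type that joins with δ, was spread widely in Core. Its Shell means were 124 ± 35.3 in Ext_Coc, 104 ± 25.3 in Ext_Sal, 119 ± 25.1 in Ctx_Coc, 133 ± 35.8 in Ctx_Sal, 149 ± 38 in HC_Coc and 135 ± 15.9 in HC_Sal CPM (SD, n = 7 each). Its Core means were 189 ± 82.0 in Ext_Coc, 159 ± 76.4 in Ext_Sal, 129 ± 76.4 in Ctx_Coc, 176 ± 71.8 in Ctx_Sal, 193 ± 102 in HC_Coc and 146 ± 44.4 in HC_Sal CPM. The lowest, median and highest libraries had 72.7, 125 and 224 CPM in Shell and 28.7, 129 and 329.8 CPM in Core. Core libraries thus reached higher than Shell libraries. Only 17-F lay below the lowest Shell library, and without it the lowest Core library had 89.9 CPM. Core HC_Coc was the highest group and Shell Ext_Sal the lowest, and no neighbouring pair of the 12 means differed by more than the smaller SD.

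Gabra2, the synaptic alpha type of projection neurons, showed the same wide spread in Core. Its Shell means were 129.8 ± 26.3 in Ext_Coc, 114 ± 22.9 in Ext_Sal, 120.0 ± 15.8 in Ctx_Coc, 136 ± 30.4 in Ctx_Sal, 151 ± 41.3 in HC_Coc and 137 ± 18.2 in HC_Sal CPM. Its Core means were 163 ± 60.8 in Ext_Coc, 137 ± 57.4 in Ext_Sal, 115 ± 52.3 in Ctx_Coc, 149.8 ± 59.8 in Ctx_Sal, 164 ± 80.7 in HC_Coc and 129 ± 38.5 in HC_Sal CPM. Over the subregions it stood at 131 ± 28.2 CPM in Shell and 143 ± 58.6 in Core (SD over 42 libraries per subregion). The medians went the other way, at 129 CPM in Shell and 112 CPM in Core, and 34 of 42 Shell libraries lay above the Core median. The groups shared a common range, from Core HC_Coc at the top to Shell Ext_Sal at the bottom, with 0 of 11 neighbouring steps over the smaller SD.

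Gabra5 was the flattest member. Its Shell means were 34.6 ± 3.04 in Ext_Coc, 31.9 ± 3.34 in Ext_Sal, 31.9 ± 2.69 in Ctx_Coc, 33.3 ± 3.75 in Ctx_Sal, 31.9 ± 3.74 in HC_Coc and 32.8 ± 1.71 in HC_Sal CPM. Its Core means were 31.3 ± 2.26 in Ext_Coc, 31.6 ± 1.57 in Ext_Sal, 33.3 ± 4.19 in Ctx_Coc, 32.0 ± 4.61 in Ctx_Sal, 31.7 ± 3.61 in HC_Coc and 32.8 ± 1.26 in HC_Sal CPM. All 12 groups overlapped, with Shell Ext_Coc highest and Core Ext_Coc lowest, and the means over subregions were 32.8 ± 3.10 CPM in Shell and 32.1 ± 3.07 CPM in Core. Most of its counts were background by the estimate above.

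Of the beta genes, Gabrb1 had the most counts of the 7 members, on the longest gene body (480.2 kb). Its Shell means were 372 ± 72.4 in Ext_Coc, 366 ± 76.1 in Ext_Sal, 356 ± 44.6 in Ctx_Coc, 405 ± 76.8 in Ctx_Sal, 424 ± 109 in HC_Coc and 400.3 ± 55.5 in HC_Sal CPM. Its Core means were 464 ± 180.3 in Ext_Coc, 395 ± 158 in Ext_Sal, 333.3 ± 126 in Ctx_Coc, 412 ± 141 in Ctx_Sal, 451 ± 200.2 in HC_Coc and 372 ± 86.0 in HC_Sal CPM. Both the highest group (Core Ext_Coc) and the lowest (Core Ctx_Coc, which holds 17-F at 164 CPM) were Core groups, and all 12 ranges overlapped.

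Gabrb2 encodes a beta type that is common across the brain. Its Shell means were 146 ± 28.2 in Ext_Coc, 149 ± 33.4 in Ext_Sal, 149 ± 15.9 in Ctx_Coc, 157 ± 46.7 in Ctx_Sal, 172 ± 46.5 in HC_Coc and 165 ± 16.2 in HC_Sal CPM. Its Core means were 149.8 ± 42.2 in Ext_Coc, 129 ± 42.8 in Ext_Sal, 122 ± 34.4 in Ctx_Coc, 148 ± 53.8 in Ctx_Sal, 147 ± 62.1 in HC_Coc and 121 ± 25.7 in HC_Sal CPM. The lowest, median and highest libraries had 112, 156 and 275 CPM in Shell and 75.2, 116 and 239.7 CPM in Core, and 39 of 42 Shell libraries lay above the Core median. Shell HC_Coc was the highest group and Core HC_Sal the lowest, with no neighbouring step over the smaller SD.

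Gabrd, the partner of Gabra4, has the shortest gene body of the 7 (11.9 kb) and the lowest CPM. Its Shell means were 18.9 ± 4.25 in Ext_Coc, 15.2 ± 3.48 in Ext_Sal, 18.8 ± 3.74 in Ctx_Coc, 18.4 ± 5.31 in Ctx_Sal, 20.0 ± 2.92 in HC_Coc and 19.4 ± 2.40 in HC_Sal CPM. Its Core means were 25.7 ± 7.38 in Ext_Coc, 26.6 ± 9.73 in Ext_Sal, 20.2 ± 10.6 in Ctx_Coc, 26.4 ± 7.46 in Ctx_Sal, 25.2 ± 10.5 in HC_Coc and 22.5 ± 6.31 in HC_Sal CPM. The lowest, median and highest libraries had 10.8, 18.2 and 26.2 CPM in Shell and 4.78, 21.4 and 43.0 CPM in Core. The 6 Shell means were all below the 6 Core means, while single libraries overlapped: the Core mean exceeded 37 of the 42 Shell libraries, and 0 Shell libraries were below every Core library. The lowest value was that of 17-F, and without it the lowest Core library had 14.7 CPM.

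**Figure D2:**
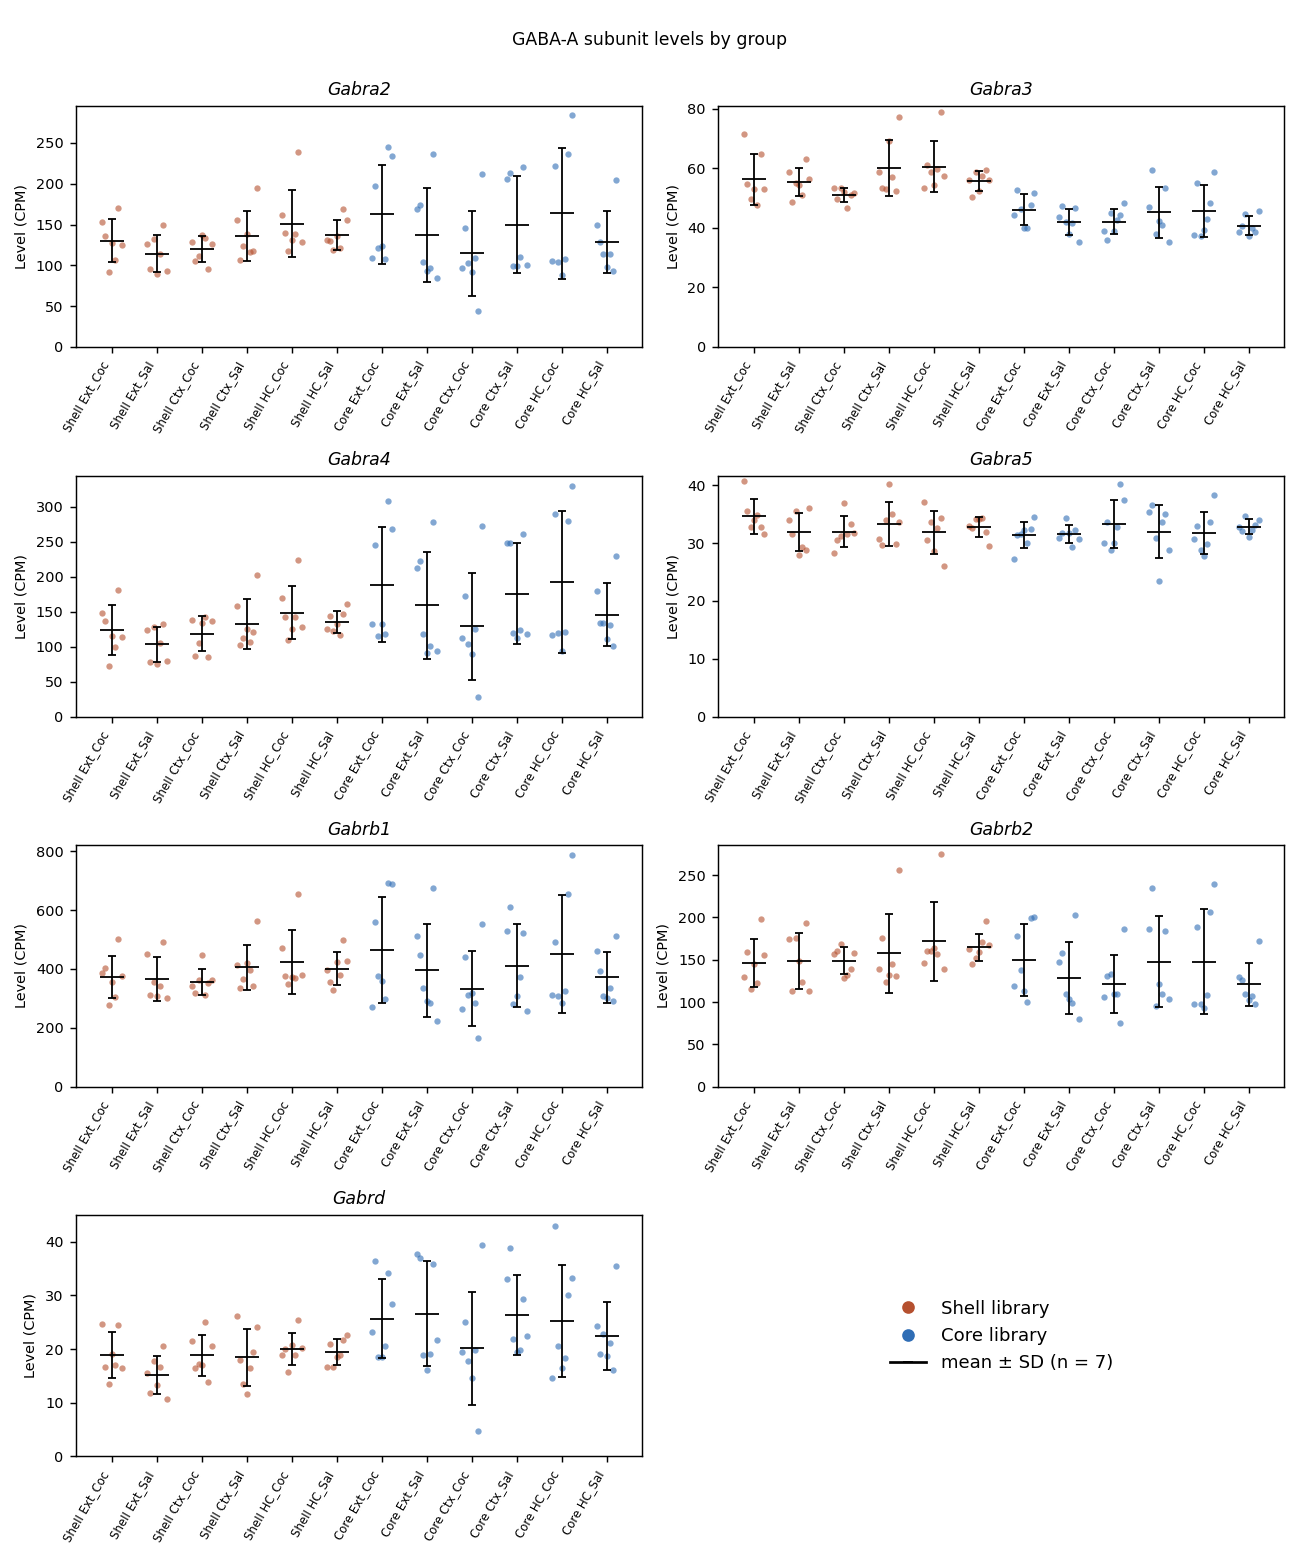
Level (CPM) of each member in the 12 groups, 1 panel per gene, with a point per library and black bars for the mean and 1 SD (n = 7 per group); Shell groups are on the left and Core groups on the right of each panel. Gabra3 is higher in the Shell groups, and the points of Gabra2, Gabra4, Gabrb1 and Gabrd are spread more widely in Core.

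The first comparison asked how the subregions differ over all states and drugs. Gabra3 was 1.30-fold higher in Shell, while Gabra4 was 1.28-fold and Gabrd 1.32-fold lower in Shell. Gabra3 stood at 56.4 ± 7.12 CPM in Shell and 43.6 ± 6.11 in Core, a log2 fold change of 0.37 ± 0.04 (adjusted p = 2.04e-12). Gabra4 stood at 127 ± 31.8 CPM in Shell and 166 ± 76.0 in Core (-0.36 ± 0.11, adjusted p = 0.0180). Gabrd stood at 18.5 ± 3.89 CPM in Shell and 24.4 ± 8.59 in Core (-0.40 ± 0.09, adjusted p = 0.00115; SD over 42 libraries per subregion). The other 4 members did not pass: Gabrb2 had 0.21 ± 0.08 (adjusted p = 0.0546), Gabra2 -0.10 ± 0.09 (0.461), Gabrb1 -0.05 ± 0.08 (0.710) and Gabra5 0.03 ± 0.03 (0.554).

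These tests are edgeR's quasi-likelihood test on the counts, with Benjamini-Hochberg adjustment over 32145 genes and a threshold of 0.05. It called 1 of 7 members higher and 2 lower, where it called 4.56% of all genes higher and 8.77% lower (13.3% in either direction). The median log2 fold change was -0.05 over the 7 members and 0.05 over all genes. Fewer cells of a type and less RNA per cell cannot be told apart in such bulk tissue. The numbered series of the titles hold 1 subregion each (series 1 and 2 Core, series 3 and 4 Shell), so that series and subregion cannot be told apart there. Only the F series, with 12 libraries of each subregion, holds both. Core and Shell libraries of the numbered series share numbers, and an edgeR fit that took these as pairs called Gabra3, Gabrd and Gabrb2. Gabra4 was not called in that fit (-0.23 ± 0.09, adjusted p = 0.106).

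Within the F series 0 of 7 members passed (1 at an unadjusted p under 0.05), and edgeR called 76 of 33581 genes there. There Gabra3 averaged 60 ± 9.43 CPM in Shell and 46.1 ± 7.14 in Core (SD over 12 libraries per subregion), with a log2 fold change of 0.38 ± 0.12 (adjusted p = 0.410) as large as over all libraries, but the median of all genes in that fit was 0.26. Gabra4 averaged 143 ± 43.6 CPM in Shell and 214 ± 100.1 in Core (-0.57 ± 0.33, adjusted p = 0.421), and Gabrd 20.0 ± 4.39 CPM in Shell and 27.6 ± 9.85 in Core (-0.47 ± 0.28, adjusted p = 0.421). Without 17-F the F series gave 0.36 ± 0.13 for Gabra3, -0.72 ± 0.25 for Gabra4 and -0.62 ± 0.18 for Gabrd (adjusted p = 0.0572, 0.0554 and 0.0543), beside a median of 0.40 over all genes. Gabra3 thus lay above the median of all genes with 17-F and below it without, while Gabra4 and Gabrd lay on the other side of 0 from it in both fits. In the numbered series Gabra4 averaged 129 ± 27.5 CPM in series 3 and 115 ± 19.5 in series 4 (Shell), and 193 ± 60 in series 1 and 115 ± 13.8 in series 2 (Core). Core series 2 was thus level with Shell series 4 for Gabra4. Gabrd had 18.9 ± 4.04 and 17.1 ± 3.09 CPM in Shell series 3 and 4, and 29.3 ± 9.37 and 19.1 ± 2.02 CPM in Core series 1 and 2, the first of them the highest. Both Shell series had more Gabra3 than either Core series, with 55.7 ± 6.25 and 54.6 ± 5.15 CPM in Shell series 3 and 4, and 45.1 ± 7.46 and 40.9 ± 2.74 CPM in Core series 1 and 2.

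The background moved with these differences. It averaged 20.5%, 25.6% and 20.4% of the counts in Shell series 3, 4 and F, and 11.5%, 26.6% and 16.5% in Core series 1, 2 and F (median 3.74% in Core F). With the background level as a covariate, Gabra4 was at 0.03 ± 0.05 (adjusted p = 0.698) and Gabrd at -0.11 ± 0.05 (0.0823), so both calls were lost. Gabra3 kept its call at 0.45 ± 0.03 (1.23e-21). Gabrb2 was then called higher in Shell at 0.45 ± 0.04 (1.64e-17), as were Gabra2 at 0.22 ± 0.04 (2.50e-06) and Gabrb1 at 0.22 ± 0.04 (3.64e-05). Without 17-F, the covariate fit called Gabrd lower (-0.16 ± 0.05, adjusted p = 0.00456) and still not Gabra4 (-0.01 ± 0.04, 0.848). More of all genes passed with the covariate than as deposited, as counted below. When the background was subtracted from the counts, Gabrb2 was higher at 0.50 ± 0.12 (8.24e-04) and Gabrd lower at -0.20 ± 0.07 (0.0474), while Gabra3 had 0.58 ± 0.53 and did not pass (0.57). In a typical library little of Gabra3 was left by then: the median was 12.0 CPM in Shell and 0 CPM in Core (highest 53.5 CPM in Shell and 38.8 CPM in Core), against 21.5 CPM in Shell and 25.6 CPM in Core for Gabrd. Of the 7 members, the direction of Gabra3, Gabrb2, Gabrd and Gabra5 in the average was the same with the counts as deposited, with the covariate and after subtraction.

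Library 17-F had 44.4 CPM of Gabra2, 28.7 of Gabra4, 164 of Gabrb1, 75.2 of Gabrb2 and 4.78 of Gabrd, the lowest of all 84 for each of these 5. It had 44.1 CPM of Gabra3 and 40.1 of Gabra5, inside the range of the other libraries. Without it Gabra3 had 0.38 ± 0.04, Gabra4 -0.38 ± 0.10 and Gabrd -0.42 ± 0.08, all 3 still past the threshold. Gabrb2 also passed then, as higher in Shell, at 0.20 ± 0.07 (adjusted p = 0.0438). Its estimate was no larger than with 17-F (0.21 ± 0.08), and its unadjusted edgeR p was higher (0.0107 against 0.00758). More of all genes passed without 17-F, as counted below, and the adjustment runs over all genes. The Core means without it were 169 ± 73.8 CPM for Gabra4 and 24.9 ± 8.11 CPM for Gabrd (SD, n = 41).

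**Figure D3:**
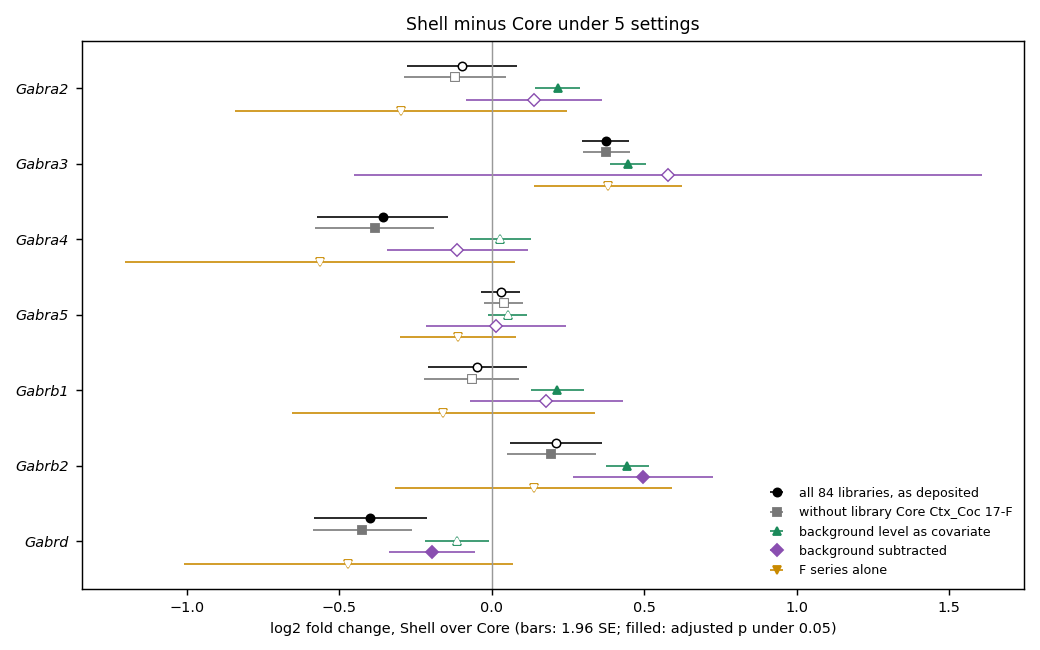
Log2 fold change of each member, Shell over Core, under 5 settings, with bars of approximate 95% intervals; filled symbols passed an adjusted p of 0.05 and open symbols did not. Gabra3 lies right of 0 in each setting, Gabrb2 moves right once the background is taken into account, and Gabra4 and Gabrd move towards 0 with it.

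**Figure D4:**
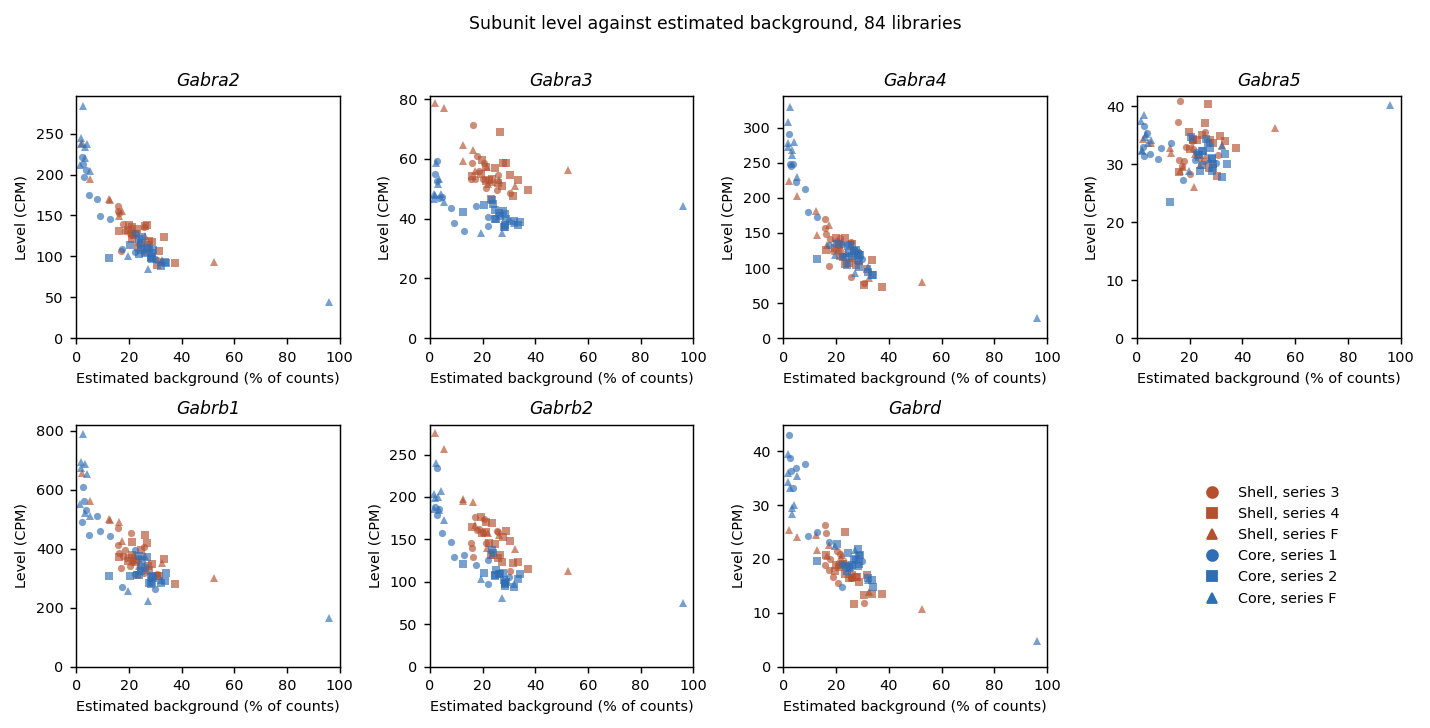
Level (CPM) of each member against the estimated background (% of counts) in 84 libraries, coloured by subregion and shaped by series. Gabra2, Gabra4, Gabrb1, Gabrb2 and Gabrd are lower in libraries with more background in both subregions, Gabra5 is nearly flat, and for Gabra3 the Shell points lie above the Core points at like background; the point at the far right is Core Ctx_Coc 17-F.

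Markers of other cells moved with the subregion as well. All 12 oligodendrocyte genes were lower in Shell, with a summed level of 574 to 2319.9 CPM in Shell and 245 to 8063 CPM in Core. Of the projection neuron markers 0 were higher and 3 of 8 lower. Of 7 D1-type markers 3 were higher and 0 lower (153 to 353 CPM in Shell and 115 to 397 CPM in Core), and of 7 D2-type markers 0 were higher and 3 lower (484 to 1129 CPM in Shell and 351 to 1672 CPM in Core). Of 14 interneuron genes 6 were higher and 2 lower (211 to 367 CPM in Shell and 189 to 338 CPM in Core), and of 11 genes of cortical glutamatergic neurons 2 were higher and 0 lower (161 to 503 CPM in Shell and 92.1 to 369 CPM in Core). Among 10 astrocyte genes 2 were higher and 2 lower, among 7 microglial genes 6 were lower, and among 8 vessel genes 1 was higher and 1 lower. No listed marker had a median at 0 in either subregion, and no listed gene was called in any comparison within a subregion. The part of these cells in the differences of the 7 members was not tested.

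Taken group by group, Gabra3 was the member that passed. It was higher in Shell in HC_Sal (0.45 ± 0.10, adjusted p = 0.00292), HC_Coc (0.41 ± 0.10, 0.00609), Ctx_Sal (0.41 ± 0.10, 0.00701) and Ext_Sal (0.40 ± 0.10, 0.0143). In Ext_Coc it had 0.29 ± 0.10 and in Ctx_Coc 0.28 ± 0.10, which did not pass (adjusted p = 0.127 and 0.515). The counts of members called were thus 0 of 7 in Ext_Coc, 1 in Ext_Sal, 0 in Ctx_Coc, 1 in Ctx_Sal, 1 in HC_Coc and 1 in HC_Sal. Over all genes the test called 1.71%, 1.15%, 0.109%, 1.65%, 1.52% and 0.946% in the same order. Gabrd ranged from -0.80 ± 0.23 in Ext_Sal (adjusted p = 0.0670) to -0.09 ± 0.23 in Ctx_Coc, and Gabra4 from -0.61 ± 0.27 in Ext_Sal to -0.10 ± 0.27 in Ctx_Coc. Gabrb2 ranged from 0.45 ± 0.19 in HC_Sal to -0.02 ± 0.19 in Ext_Coc. Library 17-F sets the Ctx_Coc values: without it Ctx_Coc gave -0.27 ± 0.21 for Gabrd, -0.28 ± 0.25 for Gabra4, 0.28 ± 0.10 for Gabra3 and 0.19 ± 0.19 for Gabrb2, and the estimates of Gabrd and Gabra4 nearest 0 were then in HC_Sal (-0.19 ± 0.20 and -0.09 ± 0.24). Without 17-F, Gabrd passed as lower in Ext_Sal too (-0.80 ± 0.20, adjusted p = 0.0180).

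Whether the subregion difference itself depended on drug was tested as an interaction, Shell minus Core in Coc less Shell minus Core in Sal. The values were -0.09 ± 0.08 for Gabra3, 0.04 ± 0.22 for Gabra4, 0.23 ± 0.19 for Gabrd and -0.07 ± 0.15 for Gabrb2. They were 0.01 ± 0.18 for Gabra2, 0.01 ± 0.07 for Gabra5 and -0.06 ± 0.17 for Gabrb1. Without 17-F they were -0.10 ± 0.08 for Gabra3, -0.02 ± 0.20 for Gabra4, 0.17 ± 0.17 for Gabrd and -0.11 ± 0.15 for Gabrb2, and -0.05 ± 0.17 for Gabra2, 0.02 ± 0.06 for Gabra5 and -0.11 ± 0.16 for Gabrb1, none past the threshold. The edgeR test called 0 of 7 members (0 at an unadjusted p under 0.05, and 0 by DESeq2), and 0% of all genes. The differing calls of Gabra3 in the Coc and Sal groups above are therefore not shown to differ.

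Other GABA genes differed between the subregions in both directions. Of 36 such genes, 9 were higher and 2 lower in Shell, with a median log2 fold change of 0.10 against 0.05 over all genes. The same test called 4.56% of all genes higher and 8.77% lower. Among the other subunit genes, Gabre (0.72 ± 0.12) and Gabrq (0.86 ± 0.14) were higher. In the RefSeq gene table (GRCr8) both lie close to Gabra3 on the X chromosome, so that these 3 neighbours were all higher in Shell. All 3 averaged near the rate of the silent receptor genes, with 0.182 ± 0.0517 CPM per kb in Shell and 0.109 ± 0.0447 in Core for Gabre, and 0.187 ± 0.0629 in Shell and 0.104 ± 0.0478 in Core for Gabrq. Gabra2, Gabra4, Gabrb1 and Gabrg1 lie together on chromosome 14, where of these 4 only Gabra4 passed.

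Of the genes that make and clear GABA, Gad1, a GABA-synthesising enzyme (0.35 ± 0.12), and Slc6a11, the astrocyte transporter GAT3 (0.53 ± 0.07), were higher in Shell. The other 2 genes of synthesis and packaging and both genes of GABA breakdown did not pass. Gabbr2, a subunit of the GABA-B receptor, was higher (0.15 ± 0.04). Among 12 anchoring and trafficking genes, Hap1 (0.51 ± 0.13), which takes part in receptor recycling, and Iqsec3 (0.55 ± 0.06), a gephyrin-binding protein, were higher, and Plcl1 (-0.77 ± 0.08), which binds beta subunits, was lower. The other 9, gephyrin among them, did not pass. Slc12a2, the chloride importer NKCC1, was lower (-0.65 ± 0.10). With the background as a covariate 29 of the 36 were higher and 2 lower, and without 17-F 11 were higher and 3 lower. More of all genes passed in both of these fits too, as counted below. The larger counts are therefore not shown to be particular to GABA genes.

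Within Shell, Coc was compared with Sal in each state. The estimates of 6 of 7 members were positive in Ext and in HC and negative in Ctx, and no member passed. In Ext the values were 0.30 ± 0.15 for Gabrd, 0.24 ± 0.16 for Gabra4 and 0.17 ± 0.13 for Gabra2. Gabrd had 13.5, 17.1 and 24.7 CPM in the lowest, median and highest library of Ext_Coc, against 10.8, 15.5 and 20.6 CPM in Ext_Sal, and the groups overlapped. In Ctx, Gabra3 had 46.6, 51.5 and 53.2 CPM in Ctx_Coc, against 52.3, 57.1 and 77.1 CPM in Ctx_Sal. Its log2 fold change of -0.24 ± 0.08 ranked first by unadjusted p among the 28 drug values in Shell, with an edgeR adjusted p of 0.731, and the 2 groups overlapped at the lower end of Ctx_Sal. In HC the values ran from -0.05 to 0.13, and averaged over the 3 states from -0.04 to 0.13. The test called 0%, 0%, 0% and 0% of 30911 genes in Ext, Ctx, HC and their average.

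Between the states in Shell, Gabra4 and Gabrd had lower estimates in Ext_Sal than in HC_Sal. Gabra4 had 76.1, 105 and 133 CPM in the lowest, median and highest library of Ext_Sal, against 117, 132 and 161 CPM in HC_Sal (-0.36 ± 0.16). Gabrd had 10.8, 15.5 and 20.6 CPM in Ext_Sal, against 16.6, 18.9 and 22.7 CPM in HC_Sal (-0.33 ± 0.15). Both ranges overlapped, and neither gene passed (adjusted p = 0.633 for each). The background averaged 28.2% in Ext_Sal, which holds 12-F, and 20.0% in HC_Sal. Ext minus Ctx within Sal gave -0.34 ± 0.16 for Gabra4 (adjusted p = 0.509), and Ctx minus HC within Coc gave -0.30 ± 0.13 for Gabra2 and -0.24 ± 0.08 for Gabra3 (0.294 for both). The background averaged 24.7% in Ctx_Coc and 17.4% in HC_Coc. These comparisons share groups and are not independent. The remaining state comparisons, Ext minus HC and Ext minus Ctx within Coc and Ctx minus HC within Sal, gave no member at an unadjusted p under 0.05. The difference of the drug effect between Ctx and HC was -0.35 ± 0.12 for Gabra3 (edgeR adjusted p = 0.505), and between Ext and HC 0.26 ± 0.21 for Gabrd.

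Over the 12 Shell comparisons, which make 84 values for the 7 members, edgeR called 0 (7 at an unadjusted p under 0.05, lowest adjusted p = 0.294), and DESeq2 called 0. Of all 30911 genes, 0.705 to 15.9% had an unadjusted edgeR p under 0.05 in a Shell comparison. The highest share was in Ctx minus HC within Coc. For the state comparisons and the differences of drug effects edgeR also called 0% of all genes in each of the 8, so a count of 0 members is the background there. The standard errors of the 84 values ran from 0.04 to 0.23.

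Within Core, Coc was compared with Sal in the same way, and 0 members passed. In Ext, Gabra4 averaged 189 ± 82.0 CPM in Ext_Coc and 159 ± 76.4 in Ext_Sal (0.23 ± 0.29), and Gabra2 163 ± 60.8 CPM in Ext_Coc and 137 ± 57.4 in Ext_Sal (0.23 ± 0.24; SD over 7 libraries a group). In HC, Gabra4 had 0.28 ± 0.29 and Gabra3 0.14 ± 0.10. In Ctx the estimates of 6 of 7 members were negative, with -0.38 ± 0.29 for Gabra4, -0.35 ± 0.24 for Gabrd and -0.31 ± 0.24 for Gabra2. Library 17-F belongs to that Ctx_Coc group, and without it the values were -0.19 ± 0.23, -0.17 ± 0.19 and -0.15 ± 0.21. Averaged over the states the 7 values ran from -0.09 to 0.07, and from -0.03 to 0.10 without 17-F. All groups overlapped for each member, and edgeR called 0%, 0%, 0% and 0% of 31370 genes in Ext, Ctx, HC and their average.

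The states in Core gave the widest estimates where 17-F entered. Ext minus Ctx within Coc was 0.46 ± 0.29 for Gabra4, 0.43 ± 0.24 for Gabra2 and 0.41 ± 0.23 for Gabrb1. Without 17-F it was 0.26 ± 0.23, 0.26 ± 0.21 and 0.26 ± 0.22. Ctx minus HC within Coc ran from -0.47 to 0.09 over the 7 members (-0.27 to 0.04 without 17-F), and Ext minus HC within Coc from -0.01 to 0.06. Within Sal the ranges were -0.07 to 0.16 for Ext minus HC, -0.18 to -0.01 for Ext minus Ctx and -0.06 to 0.24 for Ctx minus HC. The drug effect in Ctx less that in HC was -0.65 ± 0.41 for Gabra4 (-0.45 ± 0.33 without 17-F), and that in Ext less that in HC was -0.13 ± 0.35 for Gabrd. Over the 12 Core comparisons edgeR called 0 of 84 values (0 at an unadjusted p under 0.05, lowest adjusted p = 0.304), DESeq2 called 0, and edgeR called 0% of all genes in each of the 8 that are not drug contrasts. The standard errors reached 0.41 in Core and 0.23 in Shell, so an effect of the same size is less well resolved in Core. A p that misses the threshold does not show that drug or state left these genes as they were.

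**Figure D5:**
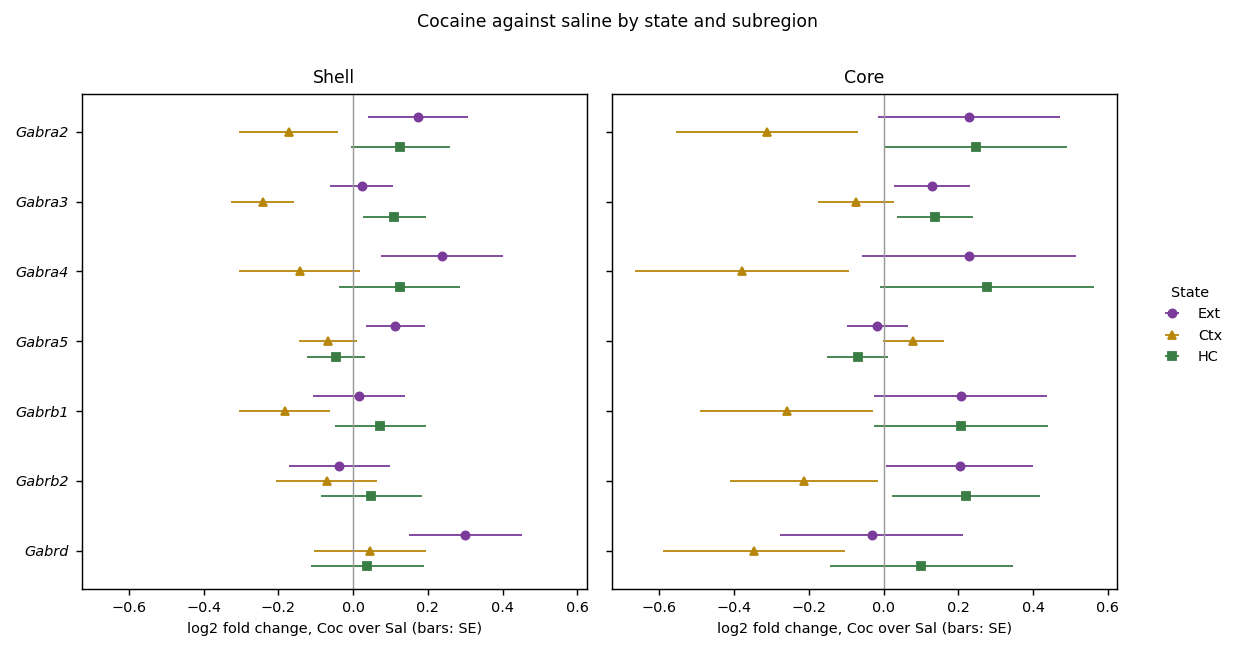
Log2 fold change of each member, Coc over Sal, in the Ext, Ctx and HC states, in Shell (left panel) and Core (right panel), with bars of 1 SE. The bars are wider in Core, and the Ctx values lie left of 0 for 6 of 7 members in each subregion; no value passed an adjusted p of 0.05.

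The members were also set against all genes, and each other, by how their levels moved from library to library after the 12 group means, the series and the background level were removed. These are Pearson correlations over 84 libraries among 15484 genes, given as a description: the values share libraries, depth and dissection. Gabra4 was most like Neto1 (r = 0.955), Cnksr2 (r = 0.939) and Mrtfb (r = 0.938). Gabrd was most like Hpca (r = 0.872), with Ppp1r1b, a marker of projection neurons, close behind (r = 0.862). Among the genes most like Gabra2 were Adgrb3 (r = 0.905) and Grm5 (r = 0.904), and Gabrb1 was most like Cadm1 (r = 0.911), Negr1 (r = 0.908) and Mdga2 (r = 0.900). Among the genes most like Gabrb2 were Herc3 (r = 0.809) and Ttbk2 (r = 0.755). The low-level genes had lower values, with Cntnap4 (r = 0.705), Tmem87a (r = 0.693) and Ascc3 (r = 0.674) for Gabra5 and Prune2 (r = 0.688), Glrb (r = 0.680) and Tenm3 (r = 0.677) for Gabra3.

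Among the members themselves, Gabra4 moved with Gabra2 (r = 0.876) and with Gabrd (0.652), and Gabra2 with Gabrb1 (0.742). Gabrb2 had 0.431 with Gabrb1 and 0.0630 with Gabra4. Gabra3 had 0.465 with Gabra5, -0.110 with Gabra4 and -0.304 with Gabrd.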

How the data were processed

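Total RNA from Shell and Core was extracted with a Direct-zol kit and made into libraries with the SMARTer Stranded Total RNA-seq kit, per the labels' protocols. Gene counts and FPKM values were deposited by the authors in 1 table each; per the submitters' processing notes, counting used featureCounts and the build mRatBN7.2. No aligner, annotation release or strand setting is given in the sources used here, nor whether molecular identifiers were used. Antisense and overlapping reads could therefore count towards a gene: Mir105 lies within Gabra3, LOC120096598 and Or6c66g-ps1 overlap Gabrb1, and LOC134480669 overlaps Gabrb2. FPKM served only to give gene length, and the lengths agreed within 1% across libraries for 34190 of 34190 genes checked.

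Counts were tested with edgeR 4.0.16 (R 4.3.3, limma 3.58.1): filterByExpr, TMM scaling, quasi-likelihood F test, two-sided, Benjamini-Hochberg adjustment over all genes tested, threshold 0.05. The log2 CPM behind the correlations used a prior count of 2. Comparisons within a subregion used its 42 libraries with series as covariate. Comparisons between subregions used all 84 libraries with the F series set against the numbered series. Background was the counts per kilobase on 2033 olfactory and vomeronasal receptor genes (2027 with a length), taken to fall evenly over all gene bodies. Alternatives were DESeq2 1.42.0, its size factors, no low-count filter, no series covariate, no F series, the F series alone, only the groups compared, the background as covariate or subtracted, a replicate block, and leaving out library 17-F or 12-F. The settings that combine 2 of these, and leaving out 12-F, were chosen after seeing the data. Scripts were tested on simulated data.

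The members and gene lists were chosen with earlier results of these data known. All 7 members are named in every comparison, other GABA genes where they passed the threshold, and for likeness the 3 genes of highest r; a few genes that these rules name are not reported here, though the list counts include them. Of 41919 gene names, 29367 matched RefSeq symbols.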

Additional observations from a re-analysis of the deposited data

Results flagged for a closer look

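In 3 of 84 combinations of a member and a group, 1 library stood far from the other 6 of its group by Dixon's test; chance flags about 1 in 20 such groups of 7. Gabra3 in Shell HC_Coc had 78.78 CPM in library 6-F, against 53.43 to 60.98 CPM in the others. Gabrb2 in the same library had 275.2 CPM, against 139.3 to 164.1 CPM in the others of Shell HC_Coc. Gabrb1 in Shell Ctx_Coc had 446.4 CPM in library 4-14, against 311.9 to 363.7 CPM in the others. The difference of the drug effect of Gabra3 between Ctx and HC in Shell uses the first of these groups, and the part of library 6-F in it was not tested. Library 6-F had the lowest background of all Shell libraries (2.13% of counts), against 15.7 to 28.7% in the others of Shell HC_Coc. The part of background in its flagged values was not tested.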

How the results depend on the processing

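Of the comparisons within a subregion, none called a member under any of the 9 alternatives in Shell and 10 in Core. The average Shell minus Core comparison called 3 of 7 members with all libraries as deposited. It called 0 in the F series alone (76 genes in all, against 4283), 0 there without 17-F (714 genes), 6 with the background level as covariate without 17-F (14134 genes) and 5 with the replicate block and the background as covariate (12768 genes); with the covariate alone 13284 genes passed, and without 17-F 8454. With the covariate the sign turned for Gabra4 (0.028), Gabrb1 (0.22) and Gabra2 (0.22), without 17-F for Gabrb1 (0.20) and Gabra2 (0.20), and with the block for Gabrb1 (0.15) and Gabra2 (0.17). Without the F series Gabra4 had -0.28 and was not called, and Gabrb2 had 0.23 and was. DESeq2's Wald test called Gabrb2 as well as the 3.

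By group, the counts as deposited called 0 members in Ext_Coc, 1 in Ext_Sal, 0 in Ctx_Coc, 1 in Ctx_Sal, 1 in HC_Coc and 1 in HC_Sal. With the covariate they were 2, 3, 3, 4, 2 and 2 in that order, and without 17-F besides 2, 3, 2, 4, 2 and 2. The average comparison also called more of all genes in these fits, as given above. The shares of all genes in the single groups are not given here for these fits. The higher counts are therefore not shown to be particular to the members. In Ext_Coc and Ext_Sal, DESeq2 size factors and the DESeq2 Wald test each gave 1 and 2. Ext_Sal gave 2 without 17-F, and Ext_Sal and Ctx_Sal gave 0 without the F series. After subtraction Ext_Sal, Ctx_Sal, HC_Coc and HC_Sal gave 0. Among values called in either setting, with the covariate, and then without 17-F too, the sign turned for Gabrb2 in Ext_Coc (0.37 and 0.37), Gabrb1 in Ctx_Sal (0.32 and 0.31) and Gabra2 in Ctx_Sal (0.28 and 0.26); after subtraction it turned for Gabra3 in Ext_Sal (-0.10). The sign of values called in neither setting turned as well, as for Gabra2 (-0.25 as deposited, 0.19 with the covariate) and Gabrb1 (-0.11 and 0.27) in Ext_Sal, and for Gabra2 (-0.29 and 0.20) and Gabrb1 (-0.29 and 0.15) in Ext_Coc. The causes were not tested.

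The titles give numbered libraries of Core and Shell the same numbers, without saying that these share an animal. With these numbers as a replicate block, Gabra3 (0.36), Gabrb2 (0.26) and Gabrd (-0.35) were called on average and Gabra4 (-0.23) was not; Ext_Sal and Ctx_Sal gave 0. With the block and the covariate the groups gave 1 in Ext_Coc, 3 in Ext_Sal, 2 in Ctx_Coc, 2 in Ctx_Sal, 2 in HC_Coc and 2 in HC_Sal. More of all genes passed on average in that fit as well, as given above. Correlations of the 30 same-numbered pairs were taken after 6 principal components of the libraries were removed. Over the 5000 genes of highest level their median was 0.0998, against -0.00481 for other pairings. There 15 of 30 pairs lay above 0.1, and 6 of 30 Core libraries matched best with their own number. Over the 200 most variable genes the median was 0.376, against -0.00782, with 28 of 30 pairs above 0.1 and 21 matching best. Each best match was sought among all 30 numbered Shell libraries. This comes from the data and not from the design. The main fits take these libraries as unpaired, so their p-values do not take such pairs into account.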
